A study of Mus musculus with 18 samples.

Results

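The 46 genes described here encode the parts of the transport machinery and gate of the cilium: 15 subunits of intraflagellar transport complex B (IFT-B), 6 subunits of complex A (IFT-A), 6 motor subunits, 8 genes of the BBSome and its assembly, and 11 genes of the transition zone. They were chosen as a list of symbols, mapped to Entrez identifiers, and make up 46 of the 27179 genes in the count files. All 46 passed the filter on low counts, which kept 17989 genes with a CPM (counts scaled to the library total) above 0.2 in at least 3 libraries.

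A cilium is built on a basal body by trains that carry tubulin and membrane proteins along its microtubules. IFT-B trains are drawn to the tip by the kinesin-II motor, IFT-A and the dynein-2 motor bring them back, the BBSome is an adaptor that loads membrane proteins for export, and the transition zone at the base is the gate through which cargo must pass. The same machinery makes the primary cilium, a lone non-motile antenna that many cell types can form, and the many motile cilia of the ciliated cells that line the airways. Loss of these genes in people causes ciliopathies such as Bardet-Biedl, Joubert and Meckel syndromes.

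RNA was sequenced from 6 sorted populations of mouse trachea and lung, with 3 libraries each and 18 in all. Tracheas of mice 1 to 3 gave the basal population, positive for NGFR, and the non-basal population, negative for it. Lungs of mice 4 to 6 gave airway CD24hi cells (EpCAM-positive, CD104-positive, CD24 high, labelled as enriched for ciliated cells), airway CD24lo cells (the same gate with low CD24, labelled as enriched for club cells), alveolar cells (EpCAM-positive, CD104 low) and EpCAM-negative, non-epithelial cells. All were untreated male C57BL/6 mice aged 8 to 12 weeks. Each gate is an enrichment and not a pure cell type, and trachea and lung came from different mice, so that organ, mouse and depth cannot be told apart between them. In bulk libraries of this kind, fewer cells of a type and less RNA per cell cannot be told apart.

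Total counts were 29317215 to 32993621 in the tracheal libraries and 9811503 to 13208897 in the lung libraries. The tracheal totals exceed the number of reads per mouse library given in the study's methods, for which the sources used here give no reason. Levels are counts per kilobase of gene length after scaling to library size (RPKM), with library sizes adjusted by edgeR's TMM factors, and 3 values given together are replicates 1, 2 and 3. The markers of each gate followed the labels. Summed over 4 genes, basal markers (Krt5, Krt14, Trp63, Ngfr) were at 1717 to 1801 RPKM in basal libraries and at 122 to 157 RPKM in non-basal libraries. Club markers were at 497303 to 699637 RPKM in CD24lo libraries and 72911 to 96126 RPKM in CD24hi libraries. AT2 markers, of surfactant-making alveolar type 2 cells, were at 173019 to 193565 RPKM in alveolar libraries, and 5 stromal markers were at 6710 to 6999 RPKM in EpCAM-negative libraries against at most 217 RPKM elsewhere. Ciliated cells were followed by 25 genes of the motile axoneme, the dynein arms, spokes and tektins of a beating cilium. These summed to 3167 to 3376 RPKM in CD24hi libraries, 260 to 608 RPKM in CD24lo, 165 to 245 RPKM in non-basal, and at most 40.0 RPKM in the other populations. CD24lo replicate 1 stood apart, with an axoneme sum of 608 RPKM against 260 and 272 RPKM in replicates 2 and 3, and CD24hi replicate 1 differed from its group with the GC content of the genes. Tracheal basal and non-basal replicate 1 and alveolar replicate 2 also stood further from the other 2 of their group than those did from each other. Results without each of these libraries are given after the comparisons.

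Promoter sequence was looked at because genes that move together may share elements, and because RFX factors, which switch on ciliary genes, bind the X-box. RefSeq promoters (GRCm38.p6, 300 bases: 250 before and 50 after the start set for each promoter) were found for 40 of the 46 members, 43 promoters in all. That start can differ from the annotated start of the gene. The Cluap1 window (chr16:3908759-3909058), for one, does not hold the gene's start at 3907194. The X-box form searched was GTTNCC, any 2 bases, then GGNAAC. It reads the same on either strand. An exact match stood in 4 of 43 member promoters (9.3%) against 148 of 32851 promoters in the table (0.451%). It stood in 0 of 24 promoters of the motile axoneme genes and in 2 of 37 promoters of other pathway genes, which are not on the list. The 4 matches of members are shown with all 14 bases in capitals. They begin at positions -121 (Bbs7), -33 (Ttc26), -24 (Mks1) and 36 (Tctn1), counted from 0 at the base that follows the first 250 of the window. These positions are not distances from the annotated start of the gene.

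Bbs7: GTTGCCTTGGAAAC
Ttc26: GTTGCCGTGGAAAC
Mks1: GTTGCCAGGGGAAC
Tctn1: GTTGCCCGGGCAAC

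Every match begins with GTTGCC. The whole windows of Bbs7 and Ttc26 are printed too, since they place the match of a BBSome subunit and of an IFT-B subunit. The match is in capitals. Bbs7 lies on the minus strand (chr3:36613340-36613639) and Ttc26 on the plus strand (chr6:38381274-38381573).

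Bbs7: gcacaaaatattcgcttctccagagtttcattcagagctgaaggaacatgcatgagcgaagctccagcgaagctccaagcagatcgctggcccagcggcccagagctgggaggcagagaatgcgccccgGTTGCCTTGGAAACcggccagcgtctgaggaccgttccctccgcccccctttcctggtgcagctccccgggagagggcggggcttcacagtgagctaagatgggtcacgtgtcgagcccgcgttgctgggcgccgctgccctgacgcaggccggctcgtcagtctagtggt
Ttc26: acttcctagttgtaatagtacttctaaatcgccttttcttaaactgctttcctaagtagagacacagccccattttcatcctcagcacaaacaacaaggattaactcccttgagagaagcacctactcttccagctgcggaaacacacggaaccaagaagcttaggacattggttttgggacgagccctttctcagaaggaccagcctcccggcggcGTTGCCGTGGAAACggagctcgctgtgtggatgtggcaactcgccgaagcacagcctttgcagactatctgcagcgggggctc

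With at most 1 mismatch at the 10 fixed bases, the form stood in 13 of 43 member promoters (30.2%), against 2.56% of all promoters. It stood in 6 of 24 promoters of the motile axoneme genes and 7 of 37 promoters of the other pathway genes. By role, it stood in 7 of 13 transition zone promoters (of B9d1, B9d2, Mks1, Nphp4, Tctn1, Tctn2 and Tmem231), 3 of 8 BBSome promoters (Bbs1, Bbs4, Bbs7), 3 of 12 IFT-B promoters (Ift22, Ift57, Ttc26) and in 0 of 5 promoters each of IFT-A and the motors. The left arm alone, GTTGCC on either strand, stood in 22 of 43 member promoters (51.2%) against 12.5% of all, and overlaps the X-box form. This arm stood in 50% of motile axoneme promoters and 27% of the other pathway promoters. The forkhead core TGTTTAC, which factors of the FOXJ1 family bind, stood in 0 of 43 member promoters and in 3.65% of all. Such a match is a string of letters, not a site shown to be bound. The 13 members with the form had a median log2 fold change of 2.28 (range 1.79 to 2.96) between CD24hi and CD24lo cells, and the 27 with a promoter that lacked it had 2.22 (range -0.41 to 3.06).

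The members were at their highest in airway CD24hi cells. For 44 of 46 the mean RPKM was highest there, against 22.7% of all genes tested, and the exceptions were Ift20 and Ttc21b. The median member stood at 36 RPKM in CD24hi cells, 8.38 RPKM in CD24lo, 8.18 RPKM in non-basal, 6.32 RPKM in basal, 6.14 RPKM in EpCAM-negative and 5.05 RPKM in alveolar cells. The lowest mean was in alveolar cells for 20 members, in basal cells for 12 and in EpCAM-negative cells for 11. Summed over the 46 genes, the CD24hi libraries held 2374, 2415 and 2474 RPKM, whilst the other 15 libraries held 327 to 687 RPKM. No member was at 0 in all libraries of a population. In CD24hi cells 6 members exceeded 100 RPKM (Ift20, Ift22, Traf3ip1, Ift43, Dync2li1 and B9d1), whereas Bbs10 was lowest, at 1.54 RPKM.

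**Figure D1:**
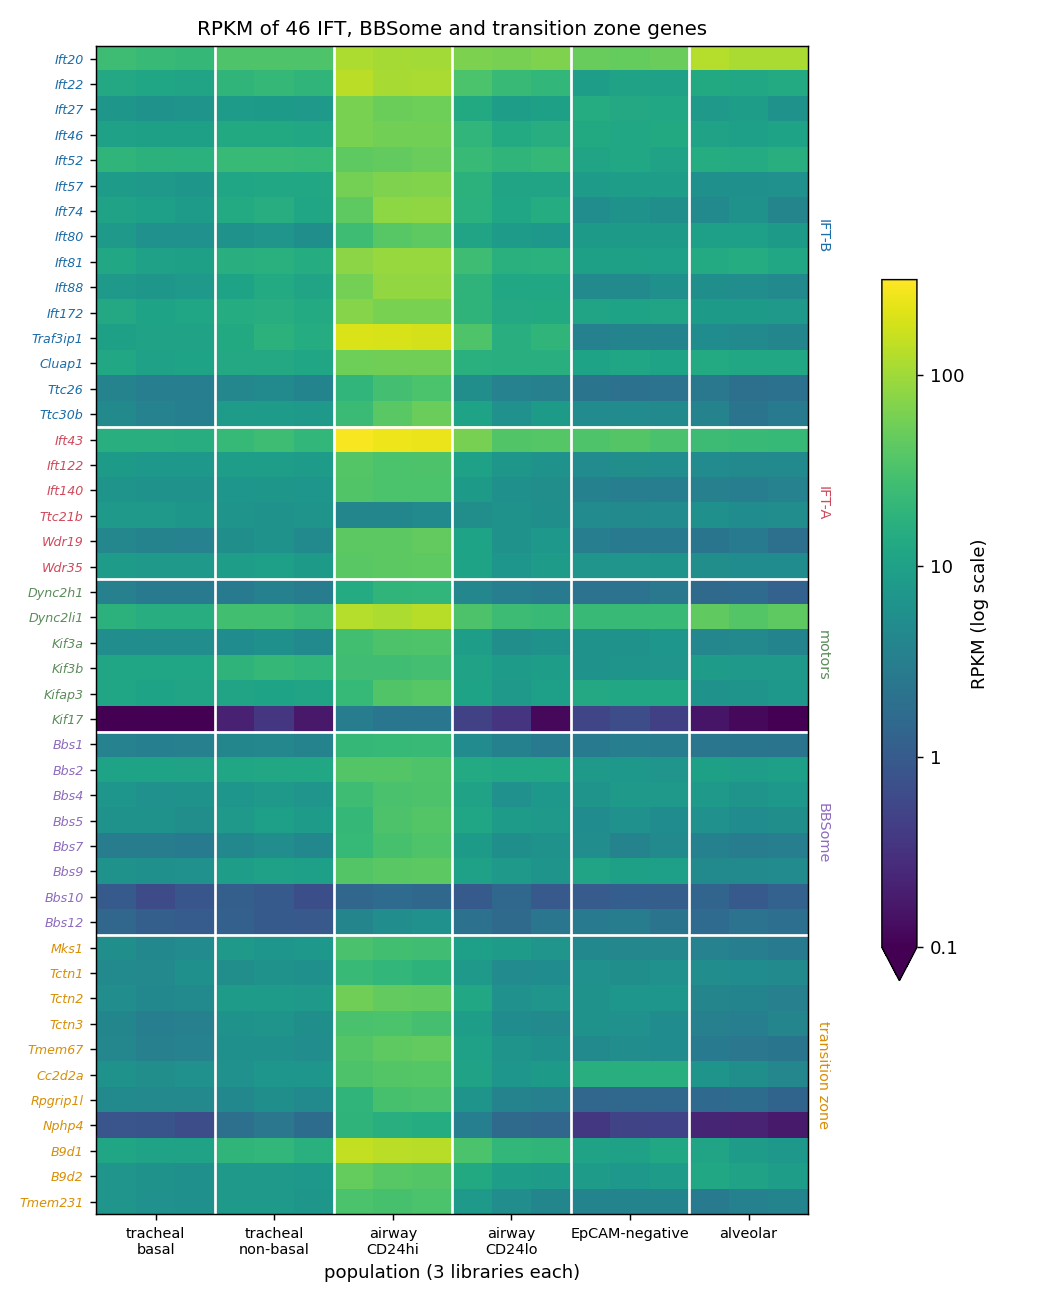
Level of each of the 46 members (rows, grouped by role) in each of the 18 libraries (columns, 3 per population), as RPKM on a log colour scale that ends at 0.1 RPKM. The 3 CD24hi columns are the brightest for nearly all genes, whilst Ift20 is as bright in alveolar libraries, Ttc21b is not raised in CD24hi and Kif17 is the darkest row.

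The ciliated-enriched and club-enriched populations of the airways were compared first, within mice 4 to 6. Of the 46 members, 44 were higher in CD24hi cells, 1 was lower (Ttc21b) and 1 was not called (Bbs10), by edgeR's quasi-likelihood test with Benjamini-Hochberg adjustment over all genes and a threshold of 0.05. Among all 17989 genes tested, 27.8% were higher and 27.2% were lower. The median log2 fold change was 2.23 for the members and -0.06 for all genes. Scaled by library size alone, 38.9% of all genes were higher and 18% lower, and the members' median stood 2.30 above that of all genes, against 2.29 with TMM. For 44 members all 3 CD24hi libraries lay above all 3 CD24lo libraries, as they did for 27.9% of all genes. Within each mouse CD24hi was above CD24lo for 45 members and for 33.2% of all genes. The 25 motile axoneme genes were all higher (median log2 fold change 3.25, range 2.78 to 3.53), so that their lowest value was above that of 43 members. Foxj1, the master regulator of motile ciliogenesis, was at 698, 591 and 588 RPKM in CD24hi and 108, 51.5 and 52.6 RPKM in CD24lo libraries. Of 9 regulators of multiciliated cells, 6 were higher and 2 lower, from -3.40 (Gmnc) to 3.15 (Foxj1) on the log2 scale.

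Nearly all members were also higher in CD24hi than in alveolar cells of the same mice. Here 43 members were higher, 1 was lower and 2 were not called (Ift20 and Bbs10), against 30.5% higher and 31.4% lower among all genes. The median log2 fold change was 3.05 for the members, -0.01 for all genes and 7.10 for the motile axoneme list. With library size alone all genes split into 40.5% higher and 21.4% lower. Against tracheal non-basal cells, from other mice, 45 members were higher and 1 was lower, against 36.9% higher and 31.5% lower among all genes, with a median of 2.35 for the members and 0.08 for all genes. With library size alone all genes split into 45.3% higher and 23.3% lower. These 3 comparisons share the CD24hi libraries.

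**Figure D2:**
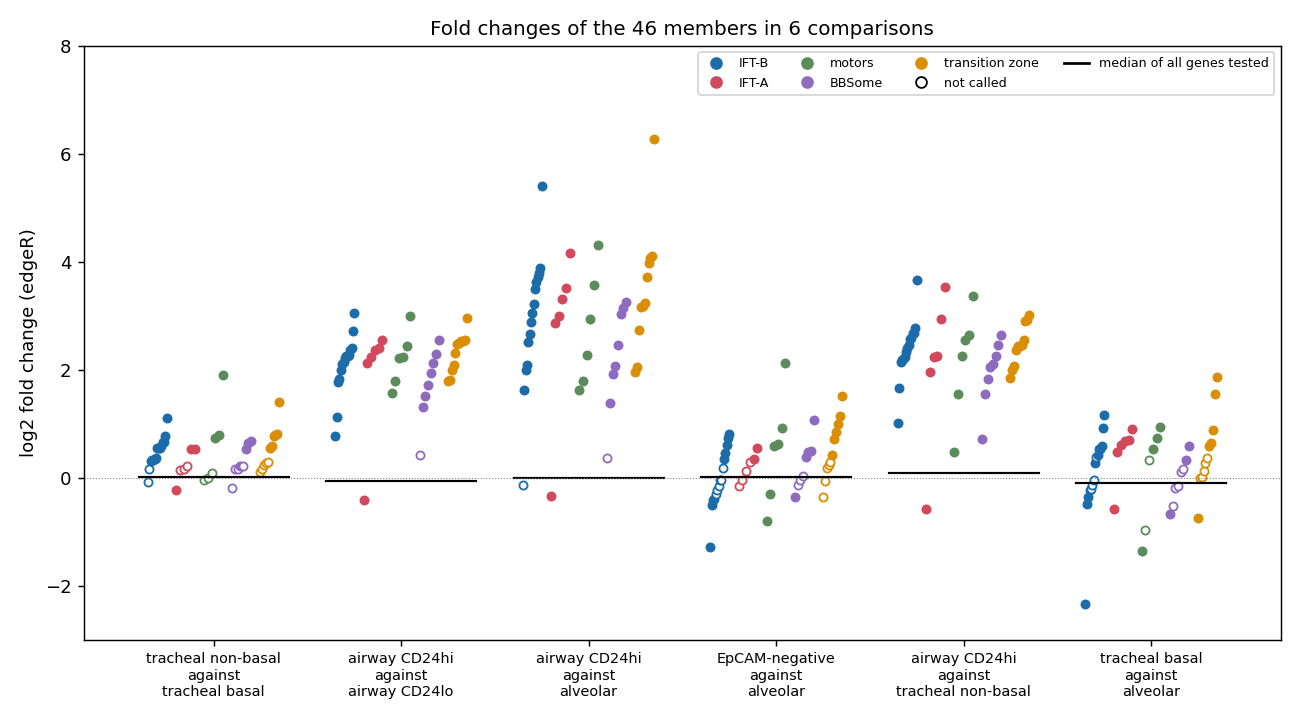
Log2 fold change (edgeR) of each member in each of the 6 comparisons, coloured by role; open circles were not called at an adjusted p of 0.05 and the black line is the median of all genes tested. In the 3 comparisons with CD24hi nearly all members lie above 1, and in the other 3 they spread on either side of 0.

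Amongst the IFT-B subunits, all 15 were higher in CD24hi than in CD24lo cells, their log2 fold changes having a median of 2.22, and 14 were higher than in alveolar cells (median 3.05). Traf3ip1, an IFT-B subunit that binds microtubules (chromosome 1, 91494590 to 91529307, mm10), changed most. It was at 198, 195 and 190 RPKM in CD24hi libraries and at 34.2, 15.9 and 19.8 RPKM in CD24lo libraries. It was at 9.78, 10.5 and 10.4 RPKM in basal and at 13.5, 18 and 14.6 RPKM in non-basal libraries. It was at 3.42, 3.82 and 3.85 RPKM in EpCAM-negative and at 4.96, 4.78 and 4.01 RPKM in alveolar libraries. The CD24hi libraries stood far above all others, and the next value was that of CD24lo replicate 1. The log2 fold change was 3.06 (SE 0.20, adjusted p = 1.84e-09) against CD24lo, 5.40 (SE 0.23, adjusted p = 1.87e-12; 42.3-fold) against alveolar and 3.66 (SE 0.21, adjusted p = 6.90e-11) against non-basal cells.

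Ift20, the IFT-B subunit that also sits at the Golgi and helps send membrane proteins to the cilium, had another pattern (chromosome 11, 78536361 to 78541732). It was at 130, 114 and 114 RPKM in alveolar libraries and at 116, 108 and 104 RPKM in CD24hi libraries, and these ranges overlapped. It was at 64.1, 60.4 and 66.6 RPKM in CD24lo and at 48.7, 47.4 and 50.6 RPKM in EpCAM-negative libraries. The tracheal levels were lower, at 34.9, 34.6 and 34.4 RPKM in non-basal and 25.9, 23.3 and 21.3 RPKM in basal libraries. Between CD24hi and alveolar cells the log2 fold change was -0.13 (SE 0.08, adjusted p = 0.190), which a correction for gene length turned into a call of lower (-0.19, adjusted p = 0.0297). Against CD24lo it was 0.78 (SE 0.09, adjusted p = 5.16e-07), the smallest among the members called higher there. Ift20 was the member with the highest level in 5 of the 6 populations when genes were compared per length, the exception being CD24hi, where Ift43, Traf3ip1, Dync2li1, B9d1 and Ift22 stood above it.

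Other IFT-B subunits rose by 1.12 (Ift52) to 2.72 (Ttc26) on the log2 scale between CD24lo and CD24hi cells. Ift81, which with Ift74 binds tubulin cargo, was at 76.9, 90.2 and 91.0 RPKM in CD24hi and at 25.8, 16.6 and 17.1 RPKM in CD24lo libraries. It was at 13.6, 14.7 and 12.7 RPKM in alveolar and at 9.72, 9.85 and 9.47 RPKM in EpCAM-negative libraries, and the tracheal libraries lay between 9.87 and 16.6 RPKM. Its log2 fold change between CD24hi and CD24lo was 2.11 (SE 0.14, adjusted p = 1.96e-09). Ift80 was at 25.8, 39.4 and 43.2 RPKM in CD24hi libraries and between 5.55 and 11.1 RPKM in the other 15 libraries. Ttc30b, a subunit built of tetratricopeptide repeats, was at 24.5, 40.8 and 50.0 RPKM in CD24hi and at 10.6, 5.90 and 8.15 RPKM in CD24lo libraries. Ttc30b has the near-identical paralogs Ttc30a1 and Ttc30a2, so that the split of reads between them is uncertain. For Ift80 and Ttc30b the CD24hi libraries did not overlap with any other, but replicate 1 lay well below the other 2.

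Of the 6 IFT-A subunits, 5 were higher and 1 was lower in CD24hi cells in each of the 3 comparisons. Ift43, a small peripheral subunit, had the highest level of any member in CD24hi cells, at 288, 256 and 253 RPKM. It was at 60.8, 35.6 and 38.3 RPKM in CD24lo, 34.4, 36.8 and 31.2 RPKM in EpCAM-negative and 24.7, 23.3 and 22.0 RPKM in alveolar libraries. It was at 22.4, 25.7 and 20.7 RPKM in non-basal and 16, 15.8 and 15.3 RPKM in basal libraries. The log2 fold change against non-basal cells was 3.53 (SE 0.16, adjusted p = 4.34e-12; 11.6-fold). Wdr35 was at 39.6, 41.1 and 43.2 RPKM in CD24hi libraries and at 4.99 to 10.7 RPKM in all other libraries, with a log2 fold change of 2.24 (SE 0.12, adjusted p = 3.36e-10) against CD24lo. Ift122, Ift140 and Wdr19 rose by 2.12 to 2.40 on the log2 scale in the same comparison.

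Ttc21b, the IFT-A subunit whose loss in mice raises Hedgehog signalling (chromosome 2, 66183787 to 66256674), was lowest in CD24hi cells. It was at 4.05, 4.08 and 4.66 RPKM there, at 5.30, 6.22 and 5.51 RPKM in CD24lo and at 5.80, 5.00 and 5.26 RPKM in alveolar libraries. It was at 4.92, 4.62 and 4.87 RPKM in EpCAM-negative, 6.41, 6.23 and 6.49 RPKM in non-basal and 7.75, 7.56 and 7.02 RPKM in basal libraries. Its whole range over 18 libraries was thus narrow, and the CD24hi libraries lay below all CD24lo, alveolar, non-basal and basal libraries. The log2 fold change was -0.41 (SE 0.09, adjusted p = 0.00109) against CD24lo, -0.33 (SE 0.09, adjusted p = 0.00514) against alveolar and -0.58 (SE 0.09, adjusted p = 1.89e-05) against non-basal cells. These calls were lost under a correction for GC content chosen after seeing the data, with adjusted p = 0.403, 0.512 and 0.0521. Scaled by library size alone, the first dropped to -0.12 (adjusted p = 0.284) and the next to -0.01 (adjusted p = 0.934), and with only the CD24hi and alveolar libraries in the fit the latter was -0.24 (adjusted p = 0.151). No setting gave Ttc21b a higher level in CD24hi cells. Its exons had 40% GC, and Bbs5, at 39.9%, was the lone member below it.

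The 6 motor subunits were all higher in CD24hi than in CD24lo, alveolar and non-basal cells. Dync2li1, a light intermediate chain of dynein-2, was at 129, 119 and 134 RPKM in CD24hi libraries. The next level was in alveolar libraries, at 43.9, 36.8 and 42.3 RPKM. It was at 32.9, 24.7 and 23.8 RPKM in CD24lo, 27.6, 27.7 and 24.5 RPKM in non-basal, 23.4, 23.0 and 23.5 RPKM in EpCAM-negative and 17.6, 15.0 and 15.2 RPKM in basal libraries. Its log2 fold change against CD24lo was 2.23 (SE 0.12, adjusted p = 2.97e-10) and against alveolar 1.63 (SE 0.11, adjusted p = 6.95e-10). Dync2h1, the heavy chain of the same motor, rose by 2.44 and 3.57 in these comparisons.

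Kif3b, a motor subunit of kinesin-II (chromosome 2, 153291395 to 153333390), was the member for which tracheal non-basal cells came nearest to CD24hi cells among those highest in CD24hi. It was at 27.0, 27.1 and 28.9 RPKM in CD24hi and at 18.9, 21.1 and 20.1 RPKM in non-basal libraries. It was at 11.3, 11.8 and 11.4 RPKM in basal, 10.5, 8.30 and 9.12 RPKM in CD24lo, 8.39, 7.79 and 7.60 RPKM in alveolar and 6.23, 6.48 and 6.67 RPKM in EpCAM-negative libraries. The log2 fold change of CD24hi against non-basal was 0.47 (SE 0.08, adjusted p = 8.48e-05), and no groups but CD24lo and alveolar overlapped. Its partners differed from it in this, since Kif3a rose by 2.65 and Kifap3 by 1.55 in the same comparison.

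Kif17, an accessory motor of the ciliary tip (chromosome 4, 138262251 to 138301973), had the lowest mean level in 4 of the 6 populations, the exceptions being CD24hi, where Bbs10 was lower, and EpCAM-negative cells, where Nphp4 was lower. It was at 2.95, 2.40 and 2.35 RPKM in CD24hi libraries, from 153, 127 and 117 reads. The other libraries held between 4 and 40 reads of it, and the levels were 0.470, 0.351 and 0.118 RPKM in CD24lo and 0.533, 0.675 and 0.467 RPKM in EpCAM-negative libraries. They were 0.209, 0.359 and 0.175 RPKM in non-basal, 0.158, 0.118 and 0.103 RPKM in alveolar and 0.0872, 0.0565 and 0.0505 RPKM in basal libraries. At such depth only the large differences stand out. Against CD24lo the log2 fold change was 2.99 (SE 0.33, adjusted p = 4.64e-07).

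In the BBSome group, 7 of 8 genes were higher in CD24hi than in CD24lo and in alveolar cells, and 8 of 8 were higher than in non-basal cells. The group had the lowest medians of all roles, at 1.82, 2.27 and 2.07 on the log2 scale. Bbs9, a core subunit of the complex, was at 36.5, 40.6 and 42.0 RPKM in CD24hi and 10.2, 7.68 and 6.43 RPKM in CD24lo libraries, a log2 fold change of 2.29 (SE 0.13, adjusted p = 4.08e-10). Bbs2 was at 37.1, 36.5 and 34.6 RPKM in CD24hi and 13.7, 12.1 and 12.1 RPKM in CD24lo libraries (log2 fold change 1.51, SE 0.08, adjusted p = 3.88e-10). In the other 12 libraries Bbs9 lay between 4.74 and 11.2 RPKM and Bbs2 between 6.69 and 12.7 RPKM.

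Bbs10 and Bbs12 are not subunits but chaperonin-like proteins that help to assemble the BBSome, and they were the scarcest of this group. Bbs10 was at 1.43, 1.67 and 1.51 RPKM in CD24hi and 0.970, 1.5 and 0.962 RPKM in CD24lo libraries. It was at 1.38, 0.969 and 1.25 RPKM in alveolar, 1.02, 1.11 and 1.16 RPKM in EpCAM-negative, 1.15, 0.970 and 0.686 RPKM in non-basal and 0.971, 0.642 and 0.872 RPKM in basal libraries. Its CD24hi range overlapped that of CD24lo, with a log2 fold change of 0.42 (SE 0.24, adjusted p = 0.154), called without CD24lo replicate 2 (0.66, adjusted p = 0.0466) and when scaled by library size alone (0.72, adjusted p = 0.0167). Against alveolar cells it was 0.36 (SE 0.24, adjusted p = 0.207), called with library size alone (0.68, adjusted p = 0.0195). Against non-basal cells it was 0.72 (SE 0.22, adjusted p = 0.00919), not called without non-basal replicate 3 (0.53, adjusted p = 0.0537). Bbs12 was at 3.91, 5.21 and 5.85 RPKM in CD24hi libraries and 2.08, 1.61 and 2.37 RPKM in CD24lo libraries, and rose by 1.31 on the log2 scale (SE 0.20, adjusted p = 2.46e-05). Bbs10 had at most 94 reads and Bbs12 at most 181 reads in any library.

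All 11 transition zone genes were higher in CD24hi cells in the 3 comparisons, with medians of 2.47 against CD24lo, 3.24 against alveolar and 2.44 against non-basal cells. B9d1, of the Meckel syndrome complex of the gate, had the highest level. It was at 152, 137 and 133 RPKM in CD24hi and at 32.4, 20.8 and 19.5 RPKM in CD24lo libraries. It was at 19.4, 20.5 and 16.6 RPKM in non-basal, 11.7, 10.3 and 10.5 RPKM in basal, 10.3, 10.1 and 12.3 RPKM in EpCAM-negative and 11.1, 8.32 and 7.33 RPKM in alveolar libraries. The log2 fold change against CD24lo was 2.53 (SE 0.17, adjusted p = 1.71e-09). Its partner B9d2 was at 47.7, 38.4 and 36.4 RPKM in CD24hi and at 5.75 to 13.3 RPKM in all other libraries, with a log2 fold change of 1.99 (SE 0.16, adjusted p = 1.28e-08) against CD24lo.

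Nphp4, a nephrocystin of the gate (chromosome 4, 152476706 to 152563184), had the largest fold change of all members. It was at 18.8, 15.9 and 14.6 RPKM in CD24hi libraries and at 0.228, 0.220 and 0.181 RPKM in alveolar libraries, where 13, 12 and 9 reads fell on it. It was at 3.20, 1.62 and 1.42 RPKM in CD24lo and 1.94, 2.45 and 1.72 RPKM in non-basal libraries. Basal libraries held 0.826, 0.808 and 0.668 RPKM and EpCAM-negative libraries 0.367, 0.525 and 0.50 RPKM. The CD24hi libraries were apart from all others, with a log2 fold change of 6.28 (SE 0.30, adjusted p = 6.19e-12; 77.6-fold) against alveolar and 2.96 (SE 0.23, adjusted p = 7.12e-09) against CD24lo cells. Rpgrip1l, which anchors the gate's complexes, was at 19.2, 29.9 and 31.0 RPKM in CD24hi and 6.57, 3.62 and 3.37 RPKM in CD24lo libraries. It was at 1.33 to 1.74 RPKM in alveolar and EpCAM-negative libraries and at 4.36 to 5.62 RPKM in tracheal libraries.

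**Figure D3:**
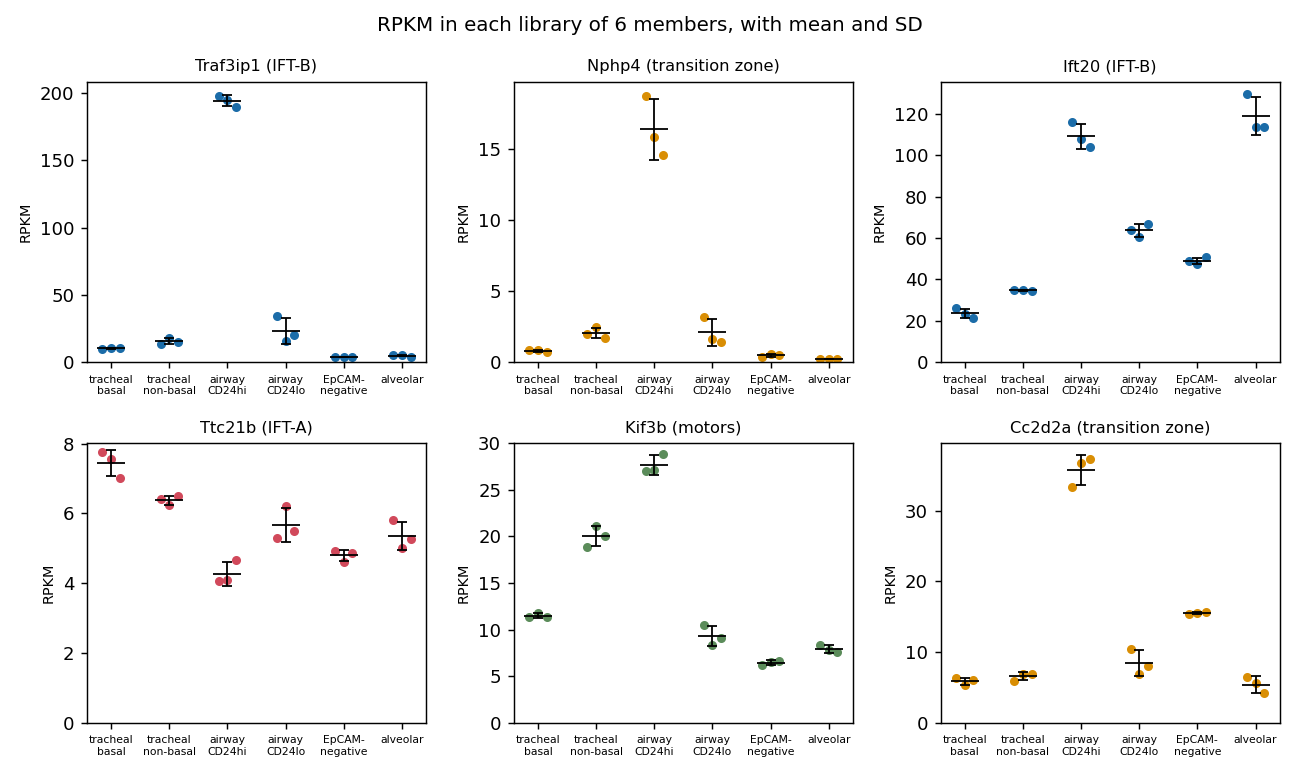
RPKM of 6 members in each library (points), with the mean and SD of 3 libraries per population; axes start at 0. Traf3ip1 and Nphp4 are by far highest in CD24hi, Ift20 is as high in alveolar as in CD24hi cells, Ttc21b is lowest in CD24hi, Kif3b is also high in tracheal non-basal cells and Cc2d2a is next highest in EpCAM-negative cells.

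The trachea was compared next, between the non-basal gate, which holds its ciliated cells, and the basal gate of the same mice. Here 26 members were higher in non-basal cells, 1 was lower and 19 were not called, against 26.2% higher and 21.9% lower among all genes. The median log2 fold change was 0.36 for the members and 0.02 for all genes, while the 25 motile axoneme genes were all higher with a median of 4.52 (range 1.58 to 5.42). All 3 non-basal libraries lay above all 3 basal libraries for 33 members and for 33.9% of all genes. Non-basal exceeded basal within each of the 3 mice for 37 members and for 39.3% of all genes. Scaled by library size alone, which moved the median of all genes to -0.31, the calls were 7 higher and 2 lower. The 7 higher were 15.2% of the members, no more than the 16.6% of all genes called higher in that fit, whilst 43.2% of all genes were lower. Relative to the median of all genes, the members' median stood 0.34 higher with TMM and 0.32 higher with library size alone. Non-basal libraries held 462, 493 and 444 RPKM over the 46 members and basal libraries 364, 330 and 327 RPKM.

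By role, 11 of 15 IFT-B, 2 of 6 IFT-A, 3 of 6 motor, 4 of 8 BBSome and 6 of 11 transition zone genes were higher in non-basal cells. Among all genes 26.2% were higher. Kif17 had the largest log2 fold change, 1.90 (SE 0.38, adjusted p = 4.65e-04), from 21 to 40 reads in non-basal and 7 to 12 reads in basal libraries. Nphp4 rose by 1.41 (SE 0.22, adjusted p = 4.31e-05). Ttc30b was at 8.56, 8.33 and 7.62 RPKM in non-basal and 4.60, 3.56 and 3.25 RPKM in basal libraries and rose by 1.10 (SE 0.23, adjusted p = 6.54e-04). Kif3b rose by 0.80 (SE 0.08, adjusted p = 4.01e-07), whereas its partners Kif3a (-0.04, adjusted p = 0.862) and Kifap3 (-0.01, adjusted p = 0.976) were not called.

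At the other end, Bbs12 was at 1.19, 0.982 and 0.964 RPKM in non-basal and 1.41, 1.14 and 1.03 RPKM in basal libraries, which overlap (log2 fold change -0.19, SE 0.20, adjusted p = 0.446; -0.54, adjusted p = 0.0311, when scaled by library size alone). Ift80 was at 6.08, 6.65 and 5.55 RPKM in non-basal and 7.55, 5.92 and 5.82 RPKM in basal libraries (log2 fold change -0.08, SE 0.17, adjusted p = 0.740). Ttc21b was again the member called lower, at -0.22 (SE 0.09, adjusted p = 0.0397). With mouse as a block this call was lost (-0.22, adjusted p = 0.0607), as it was in 5 of the 6 fits that left out 1 library and under GC correction (-0.17, adjusted p = 0.273).

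All 26 members higher in non-basal than in basal cells were also higher in CD24hi than in CD24lo cells. Among all genes tested 9.34% were higher in both. Since 44 of the 46 members were higher in CD24hi cells, the overlap was nearly fixed by the tracheal count and adds no separate result. The comparisons share no library but share the estimate of the spread.

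The EpCAM-negative and alveolar populations held few ciliated cells by the axoneme list, at 17.9 to 24.7 RPKM and 30.3 to 40.0 RPKM in sum. Between them 21 members were higher in EpCAM-negative cells, 7 were lower and 18 were not called, against 32.7% higher and 29.2% lower among all genes. The median log2 fold change was 0.26 for the members and 0.01 for all genes. Scaled by library size alone, the calls were 22 higher and 2 lower, and all genes then split into 38.6% higher and 22.9% lower. The motile axoneme list had 0 genes higher, 7 lower and 18 not called (median -0.84). The share of members called higher was near that of all genes in some fits. Leaving out alveolar replicate 3 left 14 members higher (30.4%, against 29.7% of all genes) and 8 lower, with a median of 0.16, and leaving out EpCAM-negative replicate 3 left 15 higher (32.6%, against 30.1%) and 6 lower. Of the non-epithelial lists, the stromal markers set the EpCAM-negative libraries apart. Endothelial markers summed to 128 to 222 RPKM there, but also to 112 to 257 RPKM in CD24lo and 52.7 to 198 RPKM in CD24hi libraries. Immune markers summed to 10.1 to 27.1 RPKM there and to 8.93 to 16.2 RPKM elsewhere, so that these ranges overlapped. Mesothelial markers (Msln, Upk3b, Wt1, Lrrn4) summed to 16.2 to 34.7 RPKM in EpCAM-negative, 36.0 to 66.4 RPKM in CD24lo and 1226 to 1268 RPKM in non-basal libraries. Against alveolar cells, 4 of 4 mesothelial, 4 of 4 endothelial and 3 of 4 immune markers were higher, and 1 immune marker was lower. The study's lung staining included CD45 and CD31, borne by blood and endothelial cells, and its alveolar gate was negative for both, whereas the labels describe the non-epithelial gate by EpCAM alone.

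By role, 5 of 15 IFT-B genes were higher and 4 lower (median -0.04), near the 32.7% and 29.2% of all genes. Of 11 transition zone genes 6 were higher and 0 lower (median 0.42). Among these 6, Mks1 was not called under limma voom (0.42, adjusted p = 0.0677) or without EpCAM-negative replicate 3 (0.39, adjusted p = 0.0508). Cc2d2a, a coiled-coil protein of the gate (chromosome 5, 43662374 to 43740975), was at 15.4, 15.5 and 15.6 RPKM in EpCAM-negative and 6.48, 5.57 and 4.13 RPKM in alveolar libraries. It was at 33.4, 36.7 and 37.3 RPKM in CD24hi, 10.4, 6.90 and 8.0 RPKM in CD24lo, 5.88, 6.95 and 6.90 RPKM in non-basal and 6.32, 5.36 and 5.97 RPKM in basal libraries. The EpCAM-negative libraries thus lay below CD24hi and above all the rest, with a log2 fold change of 1.52 (SE 0.15, adjusted p = 8.08e-08) against alveolar cells. Bbs9 rose by 1.07 (SE 0.13, adjusted p = 1.05e-06), from 4.79, 4.74 and 4.90 RPKM to 11.2, 9.80 and 9.41 RPKM. Tmem67, the receptor-like protein mutated in Meckel syndrome, rose by 1.00 (SE 0.18, adjusted p = 1.02e-04). Kif17 rose by 2.12 (SE 0.43, adjusted p = 3.31e-04), from 7, 5 and 4 reads to 26, 32 and 24 reads. Nphp4 rose by 1.14 (SE 0.39, adjusted p = 0.0179), which was lost under limma voom (1.10, adjusted p = 0.0715), with a length correction (0.97, adjusted p = 0.0530) and without EpCAM-negative replicate 3 (1.05, adjusted p = 0.0514) or alveolar replicate 3 (1.02, adjusted p = 0.0613).

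The members lower in EpCAM-negative cells were Ift20, Dync2li1, Ift81, Ift52, Ift22, Bbs2 and Kif3b. Ift20 fell by 1.29 on the log2 scale (SE 0.09, adjusted p = 4.20e-10), Dync2li1 fell by 0.81 (SE 0.12, adjusted p = 7.63e-06) and Ift81 fell by 0.50 (SE 0.14, adjusted p = 0.00603). With library size alone Ift81 was not called (-0.31, adjusted p = 0.115), and neither were Ift52, Ift22, Bbs2 or Kif3b. Ift22 (-0.39, adjusted p = 0.0403) was also lost under limma voom (adjusted p = 0.109) and in 5 of the 6 fits that left out 1 library. Kif3b was 0.30 lower whilst its partners Kif3a (0.62, adjusted p = 0.00165) and Kifap3 (0.93, adjusted p = 7.35e-05) were higher.

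Hedgehog signalling, which runs through the primary cilium, was followed by 8 genes. Of these 7 were higher in EpCAM-negative than in alveolar cells and 1 was not called, against 32.7% higher and 29.2% lower among all genes. Their median log2 fold change was 3.56. Hhip, an inhibitor that is also a target of the pathway, rose by 5.70 (adjusted p = 8.26e-12). Their sum was 221 to 225 RPKM in EpCAM-negative libraries and 13.3 to 42.9 RPKM in all others, and it was lowest in CD24hi libraries, at 13.3 to 15.8 RPKM, where the 46 members were highest. In CD24hi against CD24lo cells 1 of the 8 was higher and 7 were lower, against 27.8% higher and 27.2% lower among all genes.

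Basal cells of the trachea were compared with alveolar cells of other mice. Here 22 members were higher, 8 were lower and 16 were not called, against 30.5% higher and 35.6% lower among all genes, with a median log2 fold change of 0.32 for the members and -0.09 for all genes. Scaled by library size alone, which moved the median of all genes to 0.29, 31 members were higher and 2 lower, and all genes split into 44.0% higher and 24.3% lower. Relative to all genes, the members' median stood 0.41 higher with TMM and 0.44 higher with library size alone. The motile axoneme list had 0 genes higher and 15 lower (median -1.40).

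Nphp4 rose by 1.86 (SE 0.34, adjusted p = 1.09e-04), Rpgrip1l by 1.55 (SE 0.22, adjusted p = 9.53e-06) and Traf3ip1 by 1.16 (SE 0.20, adjusted p = 8.04e-05) in basal over alveolar cells. Rpgrip1l was at 4.75, 4.38 and 4.49 RPKM in basal and 1.57, 1.74 and 1.33 RPKM in alveolar libraries. In the IFT-A group 5 of 6 were higher, Ttc21b among them (0.47, SE 0.09, adjusted p = 1.54e-04), and Ift43 was lower (-0.57, SE 0.16, adjusted p = 0.00382), a call lost with library size alone (-0.17, adjusted p = 0.426) and with a length correction (-0.24, adjusted p = 0.163). Ift20 fell by 2.34 (SE 0.09, adjusted p = 1.65e-13) and Dync2li1 by 1.36 (SE 0.11, adjusted p = 9.42e-09). Kif17 had -0.96 (SE 0.52, adjusted p = 0.116) and was not called. This comparison shares the alveolar libraries with the previous one.

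Outside CD24hi cells the members kept a larger part of their level than the motile axoneme genes did. As a percent of each gene's mean RPKM in CD24hi cells, the median member stood at 21.3% in CD24lo, 19.6% in non-basal, 16.3% in basal, 16.2% in EpCAM-negative and 12.1% in alveolar cells. The median axoneme gene stood at 10.5%, 5.43%, 0.254%, 0.420% and 0.725% in the same populations. The members varied widely, from 1.28% to 126% in alveolar cells and from 2.52% to 175% in basal cells. The BBSome group had the highest median in every one of these populations, from 20.2% to 28.2%. Counted by sums, the ratio of members to axoneme genes was 0.703 to 0.781 in CD24hi, 1.13 to 1.85 in CD24lo, 2.01 to 2.81 in non-basal, 10.3 to 13.5 in alveolar, 15.6 to 21.4 in EpCAM-negative and 20.3 to 22.0 in basal libraries. These are descriptions without a test, and they share the CD24hi libraries as their base.

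**Figure D4:**
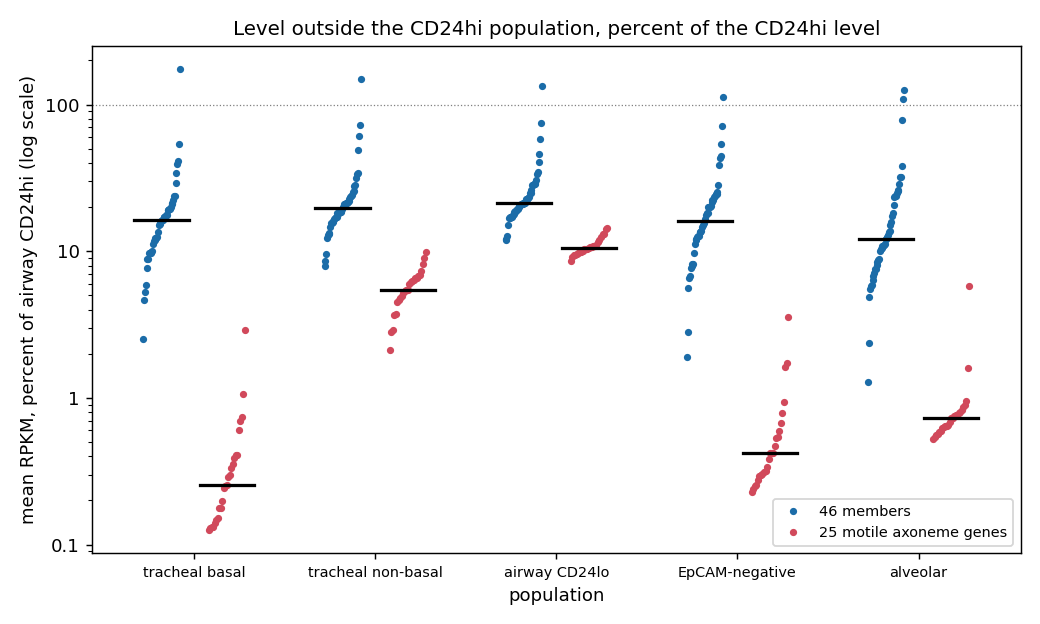
Mean RPKM of each gene in 5 populations as a percent of its mean in CD24hi cells (log axis), for the 46 members and 25 motile axoneme genes; bars are medians and the dotted line is 100%. The members' medians lie between 12.1% and 21.3% in all 5 populations, whilst the axoneme medians range from 0.254% to 10.5%.

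Other genes of the pathway, 31 that are not on the list of 46, were mostly higher in CD24hi cells, and were nearer to the shares of all genes in the other comparisons. In CD24hi against CD24lo cells 29 were higher, 0 were lower and 2 were not called (median 1.76), against 27.8% and 27.2% of all genes. Against alveolar cells 28 were higher and 2 lower (median 2.35), against 30.5% and 31.4% of all genes. The largest rise in each was that of Rabl2, a small GTPase that helps trains enter the cilium, at 2.90 and 4.79 on the log2 scale. The smallest were those of Mkks, a chaperonin-like partner of Bbs10 and Bbs12, at 0.06 against CD24lo (adjusted p = 0.742), and of Kif3c, which was -0.99 against alveolar cells. Against non-basal cells 28 of the 31 were higher and 0 lower (median 1.94), against 36.9% and 31.5% of all genes. Non-basal against basal cells gave 10 higher and 7 lower (median 0.27), against 26.2% and 21.9% of all genes, from 0.96 for Arl6, which recruits the BBSome to membranes, to -1.42 for Kif3c. EpCAM-negative against alveolar gave 13 higher and 8 lower (median 0.25), against 32.7% and 29.2% of all genes, led by Tulp3, which links receptors to IFT-A, at 1.73. Basal against alveolar gave 13 higher and 6 lower (median 0.25), against 30.5% and 35.6% of all genes, from 2.78 for Tulp3 to -0.91 for Arl3. Among 9 regulators of multiciliated cells, 6 were higher and 2 lower in CD24hi than in CD24lo cells, against 27.8% and 27.2% of all genes. All 9 were higher in CD24hi than in alveolar cells, against 30.5% of all genes. Against non-basal cells 7 were higher and 2 lower (log2 range -3.08 to 4.78), against 36.9% and 31.5% of all genes.

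Certain libraries differed from the others of their group, and the values move with the members. CD24lo replicate 1 was above both other CD24lo libraries for 42 of 46 members, against 39.4% of all genes tested, and its axoneme sum was the highest of the 3. Its median member stood at 27.6% of the CD24hi level, against 19.1% and 19.5% in the other 2. Without it 44 members were still higher and 1 lower in CD24hi than in CD24lo, with a median of 2.41. Among all genes 27.3% were higher and 25.7% lower in that fit. Tracheal basal replicate 1 was above the other 2 for 42 members (37.4% of all genes) and non-basal replicate 2 for 34 (28.8% of all genes). Between pairs of libraries of a group, the chi-square of the counts per degree of freedom was 21.2 to 39.6 where replicate 1 of the basal, non-basal, CD24hi or CD24lo populations was in the pair, and 5.23 to 7.43 between their replicates 2 and 3. It was 36.2 and 38.1 for alveolar replicate 2 against the others and 5.70 between these. Without tracheal basal replicate 1, 25 members were higher and 0 lower in non-basal than in basal cells, against 24.5% and 20.7% of all genes. Without non-basal replicate 1 the calls were 24 and 0, against 23.2% and 18.9% of all genes. Leaving out non-basal replicate 2 gave the fewest, 20 higher and 0 lower (43.5% of members higher, against 23.9% of all genes). Without alveolar replicate 2 the calls were 43 higher and 1 lower in CD24hi cells, against 28.7% and 29.5% of all genes. They were 16 and 8 in EpCAM-negative cells (34.8% of members higher, against 30.9% of all genes). In basal cells they were 19 and 7, against 28.4% and 32.9% of all genes.

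Within CD24hi cells the 3 libraries parted by the GC content of the genes. In replicate 1, the log2 ratio to the mean of the other 2 went from -0.92 for Ift74 to 0.35 for B9d2, and it followed exon GC content across the 46 members with r = 0.82, and with r = 0.70 across the 10343 genes that averaged 10 CPM or more. All 13 members with under 45% GC were below 0 (median -0.57), whereas 13 of the 33 with more were below 0 (median 0.04). In replicates 2 and 3 the relation ran the other way, with r = -0.71 and -0.82 across the members. These points share libraries and are a description. In the other populations r lay between -0.49 and 0.36. Ift74, at 41.6% GC, was at 43.1, 79.7 and 83.2 RPKM, and Ttc30b and Rpgrip1l had the same order. Beyond leaving this library out and the GC correction, the part of GC content in the results was not tested. Without CD24hi replicate 1 the calls were 44 higher and 1 lower against CD24lo, 43 and 1 against alveolar, and 45 and 1 against non-basal cells. Among all genes 28.3%, 30.3% and 35.9% were higher in these fits and 29.8%, 32.8% and 32.4% were lower.

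**Figure D5:**
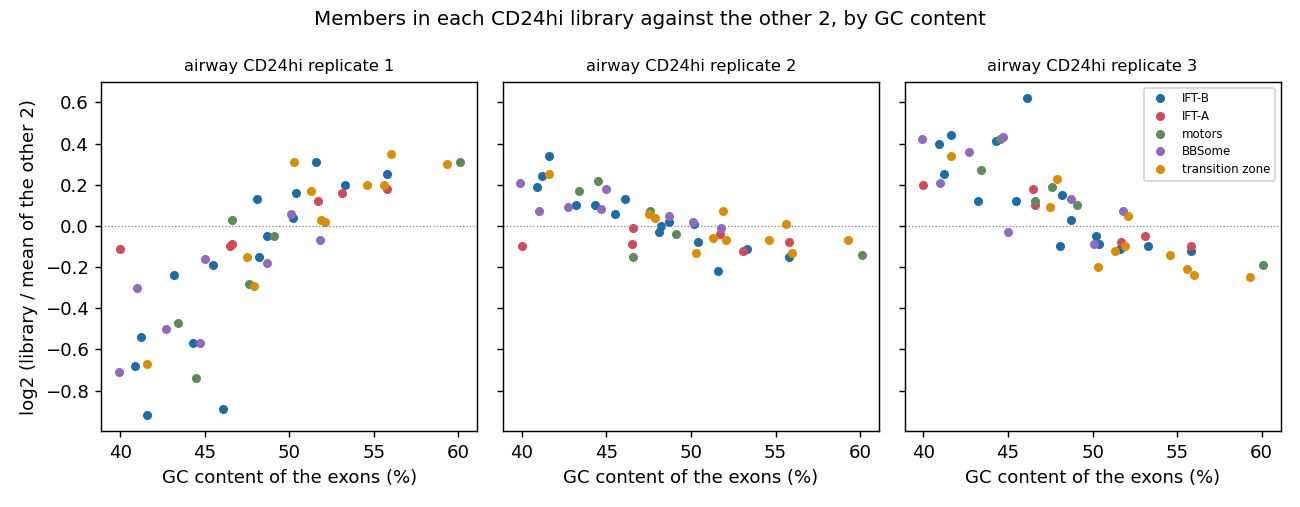
Each CD24hi library against the mean of the other 2 (log2 ratio of RPKM) by exon GC content in percent, for the 46 members coloured by role. Replicate 1 rises with GC content (r = 0.82), whilst replicates 2 and 3 fall with it.

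Counting limits some members. Exons of 38 members overlap no other annotated gene and those of 8 overlap another, by 40.8% of exon length for Cluap1 (with Gm20695), 25.5% for Tctn1 (with Hvcn1) and at most 7.86% for the rest, and whether counting used strand is not given in the sources used here. Reads of these genes, and of Ift88 and its antisense transcript Ift88os (1.45%), may be shared.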

How the data were processed

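RNA of 18 sorted mouse libraries was sequenced as 100-base single-end reads, which the authors aligned to mm10 with Rsubread and counted per Entrez gene with featureCounts and its in-built RefSeq annotation (bcl2fastq 1.8.4 in the submitters' notes; the strand setting is not given in the sources used here). The deposited values are raw counts of reads per gene for 27179 genes, 25275 of which matched a symbol in the RefSeq table (GRCm38.p6). A table of the whole series repeats these counts and was not used. 0 rows named no gene.

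Groups followed the labels. Genes with more than 0.2 CPM in at least 3 libraries were kept (17989), scaled by TMM and fitted over all 18 libraries by edgeR 4.0.16 (R 4.3.3) with 1 mean per population, and each comparison was tested by glmQLFTest with Benjamini-Hochberg adjustment over all genes tested. RPKM were computed from the counts, the TMM-scaled library size and the gene length in the files. Depth was 29317215 to 32993621 counts in trachea and 9811503 to 13208897 in lung. The p-values rest on the spread between libraries within groups, estimated over all 18 libraries together and with no term for mouse. The scripts were tested on simulated data.

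The labels tie libraries to mice, so each mouse pairs its populations. Deviations from group means of libraries of the same mouse correlated at 0.12 to 0.34 in trachea and -0.06 to 0.28 in lung. In lung, CD24hi and CD24lo libraries had 0.28, 0.04 and 0.17 in replicates 1, 2 and 3, and all other lung pairs had -0.06 to 0.09. Tracheal and lung libraries of the same replicate number, from different mice, had -0.05 to 0.06. No 2 libraries agreed within sampling noise (lowest chi-square per degree of freedom 3.5).

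Members, lists and tests were chosen with earlier results of these data known. Named by rule were, per role, the 2 members with the highest mean RPKM and, per comparison, the 3 with the largest and the 3 with the smallest log2 fold change; all other members may be named. Alternatives were other scaling, filters, limma 3.58.1 voom (the test of the study), DESeq2 1.42.0, only the libraries compared, mouse as a block, leaving out each library, length correction, thinned tracheal libraries and a GC correction.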

Additional observations from a re-analysis of the deposited data

How the results depend on the processing

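The counts of members called and their medians were recomputed under other scalings, filters, tests and sets of libraries, and under a GC correction chosen after seeing the data. Scaled by library size alone, 9 members were called between non-basal and basal cells (7 higher, 2 lower) and their median fell to 0.01 on the log2 scale, whilst the medians were 3.37 for CD24hi against alveolar, 0.45 for EpCAM-negative against alveolar, 2.61 for CD24hi against non-basal and 0.73 for basal against alveolar. It also turned the sign of members called with TMM in non-basal against basal cells (Ift52 -0.02, Ift172 -0.04, Bbs2 -0.14). In basal against alveolar cells the sign turned for Ift46 (0.37), Ift81 (0.06), Cluap1 (0.19) and Tctn1 (0.40), each called under TMM, library size alone or both. With TMM, Ift46 and Tctn1 lay near 0 in that comparison. Ift46 stood at 17.1% of its CD24hi level in basal and 17.5% in alveolar cells, and Tctn1 at 23.9% in each. Library size alone moved the median percent of the CD24hi level to 17.3% in basal, 16.4% in non-basal, 14.7% in EpCAM-negative and 9.70% in alveolar cells. The X-box form stood in 13 promoters when 1 mismatch was allowed. Leaving out 1 library at a time gave medians of 0.16 to 0.3 for EpCAM-negative against alveolar cells, lowest without alveolar replicate 3. With mouse as a replicate block the calls were 27 higher and 0 lower, 44 and 1, 43 and 1, 21 and 8, 45 and 1, and 22 and 8, in the order non-basal against basal, CD24hi against CD24lo, CD24hi against alveolar, EpCAM-negative against alveolar, CD24hi against non-basal and basal against alveolar. Among all genes, in that order, the shares higher and lower were 26.7% and 22.7%, 27.9% and 27.9%, 30.5% and 32.0%. For the rest they were 32.9% and 29.6%, 37.1% and 31.9%, and 30.6% and 36.0%. Mice were nested within organ, so that the last 2 comparisons, whose groups come from different mice, are not paired. The block ended the call of Ttc21b in the first of these (adjusted p = 0.0607), added those of Ift27 there (0.32, adjusted p = 0.0339) and of B9d2 in EpCAM-negative against alveolar cells (-0.35, adjusted p = 0.0337), and changed no other call of a member. Under limma voom, EpCAM-negative against alveolar cells gave 15 members higher (32.6%, against 32.5% of all genes) and 6 lower. Over single members, 778 of 782 recomputed values for CD24hi against CD24lo, 777 for CD24hi against alveolar and 780 for CD24hi against non-basal kept their direction and side of the threshold, against 714, 711 and 714 in the other 3 comparisons. Kif17, Nphp4, Bbs10 and Bbs12, at under 50 reads in some lung libraries, have the largest counting error. The lung libraries hold fewer reads, but Kif17 was at under 50 reads in every tracheal library as well.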
